A study of Mus musculus with 12 samples.

Results

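A set of 10 genes that damp ERK signaling is described here in oligodendrocyte precursor cells (OPCs), the PDGFRα+ glial progenitors that mature into oligodendrocytes. They are the MAP kinase phosphatases *Dusp1*, *Dusp2*, *Dusp4*, *Dusp5* and *Dusp6*, the Sprouty genes *Spry1*, *Spry2* and *Spry4*, and the Spred genes *Spred1* and *Spred2*. They were taken by symbol from the 45563 symbols used in the deposited expression tables, and all 10 were found in both tables and passed the filter of a mean of at least 0.1 FPKM (read pairs scaled to the library total and to a number of bases for each gene), as 18081 genes did.

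Primary OPCs came from cortices of C57BL/6 pups, aged 2 to 5 postnatal days by the labels and 3 to 5 by the methods, and were isolated with anti-PDGFRα beads. After 3 days in vitro in a medium with PDGF-AA and FGF2, which all groups received, cells were given TNF, IFNγ and IL1β at 25 ng/mL each for 3 h (stimulated, St) or PBS vehicle (non-stimulated, NS). WT C57BL/6J mice and germline TNFR2-/- mice gave 3 NS and 3 St libraries each (WT NS, WT St, TNFR2-/- NS and TNFR2-/- St). The replicates were numbered 2, 3 and 4 in WT and 2, 4 and 5 in TNFR2-/-, and whether a culture held the cells of 1 pup or several is not given in the sources used here.

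Library totals, estimated from the FPKM values themselves, ranged from 26886878 to 30335265 read pairs. *Tnfrsf1b*, the gene of TNFR2, had 12 to 24 reads in WT NS, 213 to 346 in TNFR2-/- NS, 61 to 145 in WT St and 282 to 356 in TNFR2-/- St libraries. This order is the reverse of a loss of this transcript in TNFR2-/-, but which exons the reads came from cannot be seen in values per gene. The labels could therefore not be checked by this gene, and TNFR2-/- below names libraries by their label. Summed OPC markers were at 7910 to 9216 CPM (reads scaled to the library total) in NS libraries and at 6500 to 7731 in St libraries, which did not overlap. Microglial markers summed to at most 1.88 CPM. Astrocyte markers summed to 789.6 to 943.1 CPM in WT libraries and to 1217 to 2523 in TNFR2-/- libraries.

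Growth factor receptors such as the PDGF and FGF receptors activate RAS, which switches on RAF, MEK and finally ERK, a kinase that drives OPC proliferation and transcription of early genes. ERK activity induces its own inhibitors. The DUSP phosphatases remove the activating phosphates from MAP kinases, Sprouty proteins act between the receptor and RAF, and Spred proteins bring the RAS inactivator neurofibromin to the membrane. Levels of these transcripts are therefore often used as readouts of ERK output.

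Promoters are shown for *Dusp6*, *Dusp5* and *Dusp1*, chosen with their values and the short motifs found upstream of them known. The part of these motifs in any change with stimulation was not tested. The 250 bases before the RefSeq start (GRCm38.p6) lie at chr10:99262981-99263230 on the plus strand for *Dusp6*, at chr19:53528895-53529144 on the plus strand for *Dusp5* and at chr17:26508473-26508722 on the minus strand for *Dusp1*. Capitals mark the motifs found.
Dusp6: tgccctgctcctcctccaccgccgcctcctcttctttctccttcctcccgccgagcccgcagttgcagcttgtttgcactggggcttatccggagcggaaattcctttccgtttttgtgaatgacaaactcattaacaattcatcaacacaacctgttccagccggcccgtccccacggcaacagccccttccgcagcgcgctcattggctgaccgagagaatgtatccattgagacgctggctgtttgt
Dusp5: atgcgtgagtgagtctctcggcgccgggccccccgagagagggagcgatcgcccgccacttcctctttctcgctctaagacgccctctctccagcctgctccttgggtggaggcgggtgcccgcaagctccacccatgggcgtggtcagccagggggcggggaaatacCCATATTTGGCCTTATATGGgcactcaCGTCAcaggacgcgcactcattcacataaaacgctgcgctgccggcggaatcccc
Dusp1: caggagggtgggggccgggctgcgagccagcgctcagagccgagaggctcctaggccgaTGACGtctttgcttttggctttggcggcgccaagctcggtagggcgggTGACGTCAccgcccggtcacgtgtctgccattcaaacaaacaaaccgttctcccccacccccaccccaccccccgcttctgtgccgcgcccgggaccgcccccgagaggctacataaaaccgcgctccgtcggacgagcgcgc
Motifs were sought on both strands of the 300 bases from 250 before to 50 after the start, in 8 members and in all 32851 promoters of that length. The *Dusp5* window held a pair of adjacent CArG boxes (the serum response factor element), CCATATTTGG and CCTTATATGG, followed by a CRE core (CGTCA). A CArG box occurred in 1.63% of all promoters. In the *Dusp1* window lay a full CRE (the cyclic AMP response element, TGACGTCA), found in 1.79% of promoters, whose letters hold the core on each strand, and 1 more core (TGACG). A CRE core stood in 20.8% of promoters and 1 each was also found for *Dusp2* and *Spred2*. *Spry2* held 1 ETS core (CCGGAA), which 14.9% of promoters hold. The *Dusp6*, *Spry1* and *Spred1* windows held none of the motifs sought. No AP-1 site (TGANTCA, 7.81% of promoters), gamma-activated sequence (TTCNNNGAA, 8.3%) or kappaB consensus (4.51%) lay in any of the 8 windows. *Dusp4* and *Spry4* had no entry.

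To compare levels between genes, reads were divided by the length of all annotated exons, since the bases by which the FPKM had been divided did not follow gene length (135 bases for *Spry2* against 2087 annotated). *Spry2* had the highest level in WT NS, at 220.2 ± 27.6 reads per exon kb, scaled to the library total (SD, n = 3), followed by *Dusp6* at 82.8 ± 5.92 and *Spry4* at 69.2 ± 1.56. *Spry1* (65.8 ± 2.94) overlapped *Spry4*, *Spred1* (51.9 ± 1.02) overlapped *Spred2* (49.3 ± 4.59), and *Dusp5* (18.1 ± 1.67) overlapped *Dusp1* (14.1 ± 3.90) on this scale, while *Dusp4* lay between at 24.5 ± 1.59 and *Dusp2* was lowest at 4.47 ± 1.29. In WT St *Spry2* was still first at 177.4 ± 20.3, *Spred1* (54.4 ± 1.68) and *Spry1* (50.9 ± 5.33) came next with overlapping ranges, and *Dusp6* had moved to 39.0 ± 0.510, within the range of *Spred2*. *Dusp5* (31.1 ± 2.98) and *Spry4* (31.1 ± 1.60) had nearly the same mean level in WT St. In TNFR2-/- St, *Dusp5* (44.9 ± 8.96) was above *Spry4* (22.0 ± 7.13), with no overlap of their ranges.

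**Figure D1:**
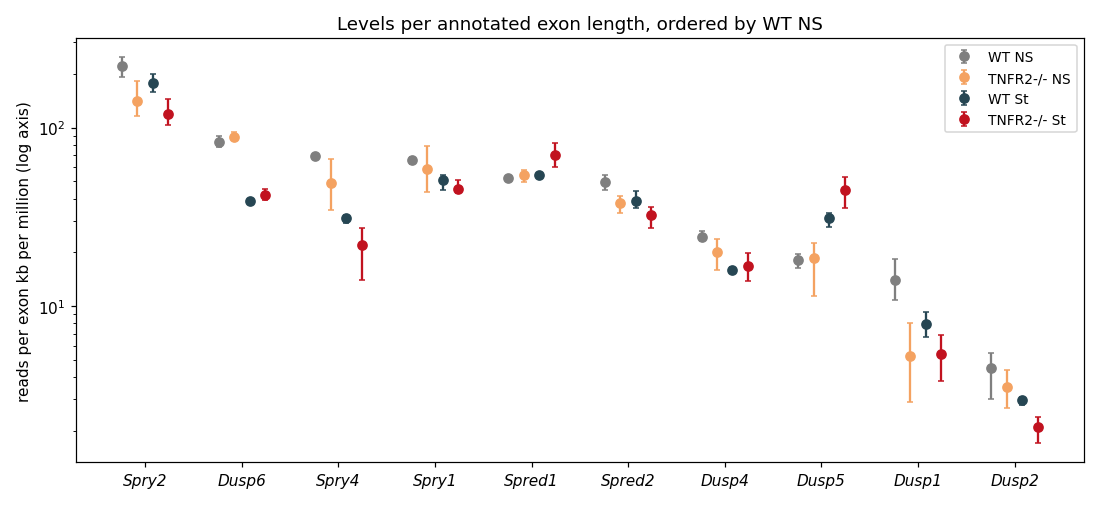
Mean level of each gene in reads per annotated exon kb, scaled to the library total (log axis), with genes ordered by WT NS, 1 color per group and bars from the lowest to the highest of 3 libraries. *Spry2* is highest at 220.2 in WT NS and *Dusp2* lowest at 4.47, and *Dusp6* drops below *Spred1* and *Spry1* in WT St.

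With stimulation, *Dusp6* and *Spry4* fell to less than 0.5 of their level in both genotypes, *Dusp4* was called lower in WT, and *Dusp5* was called higher in TNFR2-/- and had values in the same direction in WT. Of the 10 feedback genes, 8 had a fold change below 1 in WT and 7 in TNFR2-/-, beside 61.3% and 66.3% of all genes tested. In limma over log2(FPKM + 0.5), a linear model fitted to each gene, a gene was called if its adjusted p did not exceed 0.05, its change was 1.5-fold or more and it averaged 1 FPKM or more. By that rule, 3 of 10 members were called in WT St vs. WT NS, all lower (*Dusp4*, *Dusp6* and *Spry4*). Of all 13554 genes that could be called, 3.93% were called lower and 6.11% higher. In TNFR2-/- St vs. TNFR2-/- NS 2 members were called lower (*Dusp6* and *Spry4*) and 1 higher (*Dusp5*), against 6.24% lower and 7.22% higher among all genes. With the culture as a replicate block, 5 members were called in WT (*Dusp1* and *Dusp5* in addition) and 4 in TNFR2-/- (*Dusp2* in addition). The same block called 1590 of all 13554 genes in WT and 2049 in TNFR2-/-, in either direction. The median log2 fold change of the 10 members was -0.43 in WT and -0.24 in TNFR2-/-, beside -0.05 and -0.11 over all genes tested. In bulk RNA, a smaller share of cells that express a gene and less of its RNA per cell cannot be told apart. *Olig2*, a defining transcription factor of the lineage, was at 868.0 to 937.1 CPM in WT NS and 377.0 to 405.9 in WT St, and at 723.5 to 963.8 and 340.3 to 390.9 in TNFR2-/-. *Sox10*, another, was at 193.0 to 213.2 CPM in WT NS and 262.7 to 358.2 in WT St. The part of the OPC markers in the changes with stimulation was not tested.

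*Dusp6* encodes a cytoplasmic phosphatase selective for ERK and had the lowest p-values of the 10 genes with stimulation. Its FPKM was 1192, 1042 and 1075 in WT NS replicates 2, 3 and 4 and 527, 514 and 518 in the matching WT St libraries. In TNFR2-/- replicates 2, 4 and 5 it was 1166, 1252 and 1140 in NS and 600, 553 and 526 in St. Every stimulated library lay below every non-stimulated one in both genotypes. The log2 fold change was -1.08 ± 0.07 (SE) in WT (adjusted p = 1.14e-06) and -1.08 ± 0.07 in TNFR2-/- (adjusted p = 9.7e-07), and the difference between the genotypes in this change was -0.00 ± 0.09 (interaction, adjusted p = 0.9997). Within cultures, St over NS ranged from 0.441 to 0.515. The gene (ENSMUSG00000019960) lies on the plus strand of chr10:99263231-99267489 (GRCm38).

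*Spry4*, an inducible Sprouty (ENSMUSG00000024427), fell by a similar amount. WT NS libraries had 389, 406 and 395 FPKM and WT St libraries 168, 183 and 185. TNFR2-/- libraries had 266, 380 and 197 FPKM in NS and 140, 158 and 79.8 in St. The WT NS values were close together, whereas the TNFR2-/- values were spread widely, with replicate 5 lowest in both conditions, and NS and St did not overlap in either genotype. *Spry4* fell by 1.15 ± 0.26 on the log2 scale in WT (adjusted p = 0.0112) and by 1.16 ± 0.26 in TNFR2-/- (adjusted p = 0.0075). All 6 cultures were lower after stimulation, at 0.405 to 0.526 of their NS level. When the 6 TNFR2-/- libraries were fitted alone, the adjusted p was 0.0662.

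*Dusp4*, an inducible nuclear phosphatase (ENSMUSG00000031530, chr8:34807297-34819894, plus strand), fell in WT. It had 197, 223 and 206 FPKM in WT NS and 134, 134 and 140 in WT St, with no overlap. TNFR2-/- values were 174, 201 and 136 FPKM in NS and 144, 168 and 118 in St, which overlapped. The log2 fold change was -0.61 ± 0.15 in WT (adjusted p = 0.0164) and -0.24 ± 0.15 in TNFR2-/- (adjusted p = 0.259). The WT value was close to the limits of a call, and without WT NS replicate 3 or WT St replicate 2 the adjusted p was 0.0627 or 0.0534. With median-of-ratios scaling the change was -0.55 and with library weights -0.58, both under the fold limit. Within cultures the ratio of St to NS was 0.602 to 0.682 in WT and 0.831 to 0.869 in TNFR2-/-, so all 3 TNFR2-/- cultures were also lower, with an adjusted p of 0.0045 with the culture as a replicate block and a change under the fold limit. These ranges did not overlap, but the interaction of 0.37 ± 0.21 did not pass the test (adjusted p = 0.712, or 0.0968 with the culture as a replicate block).

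*Dusp5*, the inducible nuclear phosphatase specific for ERK (ENSMUSG00000034765, chr19:53529109-53542431, plus strand), was the member with the largest rise. WT libraries had 65.3, 57.9 and 69.6 FPKM in NS and 116, 98.3 and 118 in St. TNFR2-/- libraries had 79.9, 77.9 and 40.3 FPKM in NS and 189, 165 and 126 in St. All stimulated libraries exceeded all non-stimulated ones. The rise was called in TNFR2-/- (log2 fold change 1.31 ± 0.24, adjusted p = 0.00249) and had an adjusted p of 0.0507 in WT (0.78 ± 0.24). With the culture as a replicate block, the WT change was also called (adjusted p = 0.00129). Every culture was higher in St, by 1.69 to 1.77 times in WT and from 2.12 to 3.12 times in TNFR2-/-, and the interaction was 0.54 ± 0.34 (adjusted p = 0.756, or 0.118 with the block). Reads of an overlapping gene on the opposite strand, AC137853.2, could not be told apart if strand was not used in counting.

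**Figure D2:**
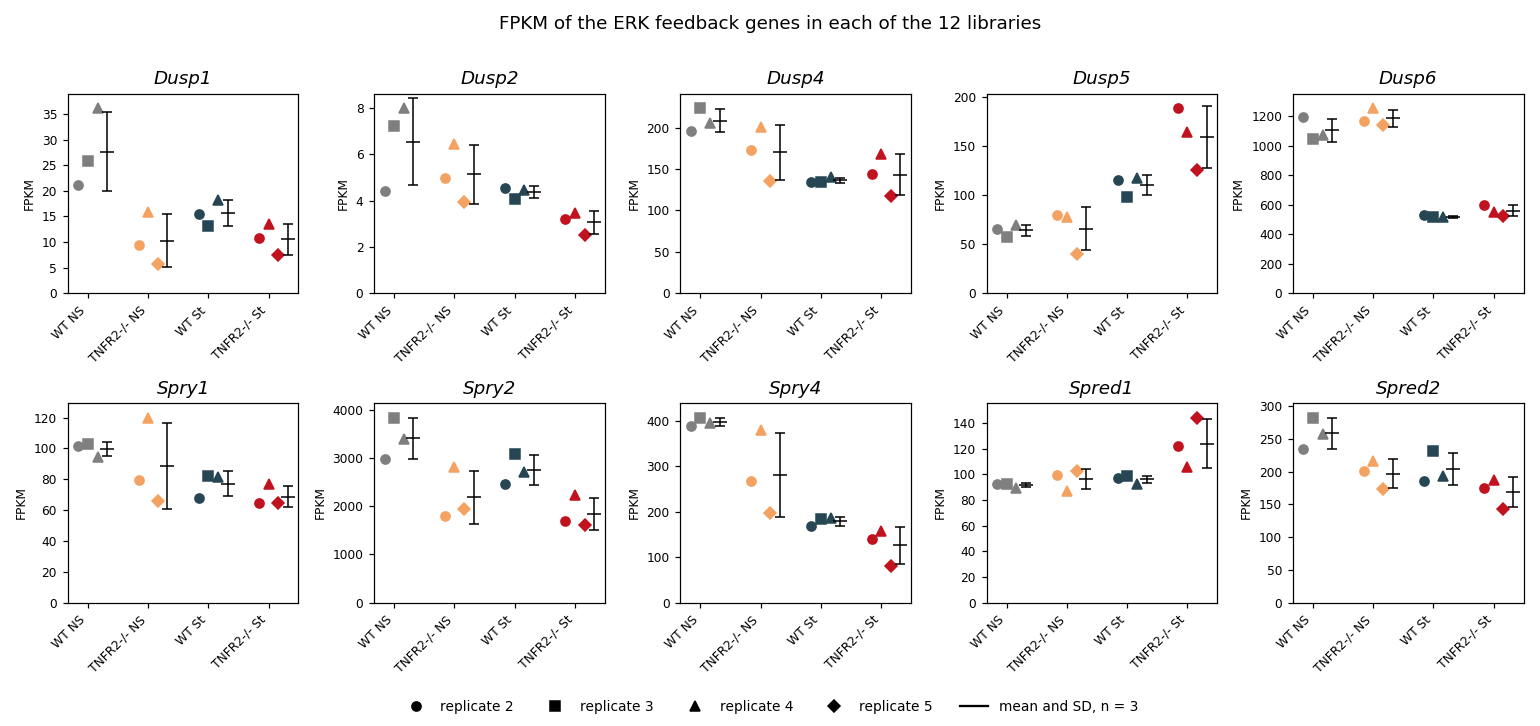
FPKM of each of the 10 genes (1 panel each, vertical axis from 0) in the 12 libraries, by group, with the marker shape giving the replicate number and black bars the mean and SD of 3 libraries. *Dusp6* and *Spry4* in St lie below NS in both genotypes, *Dusp5* in St lies above NS, and *Dusp1* and *Spry2* in TNFR2-/- NS lie below WT NS.

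The remaining 6 members were not called with stimulation, and their values follow. *Dusp1*, a nuclear phosphatase that acts on p38 and JNK as well as ERK (ENSMUSG00000024190, chr17:26505590-26562128, minus strand), had 21.1, 25.8 and 36.1 FPKM in WT NS and 15.6, 13.2 and 18.2 in WT St. Its TNFR2-/- values were 9.35, 15.8 and 5.67 FPKM in NS and 10.8, 13.5 and 7.47 in St. The WT groups did not overlap and the TNFR2-/- groups did. The log2 fold change was -0.78 ± 0.34 in WT (adjusted p = 0.161) and 0.11 ± 0.34 in TNFR2-/- (adjusted p = 0.841). All 3 WT cultures went down, to 0.506 to 0.737 of NS, and the replicate block gave an adjusted p of 0.0073 in WT. The interaction was 0.89 ± 0.47 (adjusted p = 0.692, or 0.105 with the block). Exons of *Ergic1* on the opposite strand overlap those of *Dusp1*, so its reads could be shared. The annotated span of *Dusp1* given here reaches past the RefSeq start, so the promoter window shown above lies inside it.

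*Dusp2*, a nuclear phosphatase best known from immune cells (ENSMUSG00000027368, chr2:127336159-127338376, plus strand), was the least abundant member, with 98 reads in its lowest library. It had 4.40, 7.23 and 7.97 FPKM in WT NS and 4.54, 4.09 and 4.47 in WT St. In TNFR2-/- it had 4.98, 6.44 and 3.95 FPKM in NS and 3.21, 3.48 and 2.49 in St. The WT groups overlapped and the TNFR2-/- groups did not. The log2 fold change was -0.65 ± 0.22 in TNFR2-/- (adjusted p = 0.0513, or 0.0187 with the replicate block, which called it) and -0.49 ± 0.22 in WT (adjusted p = 0.169).

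*Spry2*, the most abundant Sprouty gene here (ENSMUSG00000022114, chr14:105891947-105896819, minus strand), had 2980, 3834 and 3398 FPKM in WT NS and 2451, 3076 and 2699 in WT St. TNFR2-/- libraries had 1792, 2806 and 1941 FPKM in NS and 1681, 2224 and 1606 in St. All 6 cultures were lower after stimulation, at 0.793 to 0.938 of NS, but the NS and St groups overlapped in both genotypes. The adjusted p was 0.316 in WT (log2 fold change -0.31 ± 0.18) and 0.388 in TNFR2-/- (-0.23 ± 0.18). With the replicate block it was 0.00344 and 0.00804, with a change under the fold limit.

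*Spry1* (ENSMUSG00000037211, chr3:37639947-37644598, plus strand) had 101.5, 103 and 94.7 FPKM in WT NS and 67.9, 82.1 and 81.7 in WT St, without overlap. Its TNFR2-/- values of 79.8, 120 and 65.9 FPKM in NS and 64.8, 76.6 and 64.8 in St overlapped. The log2 fold change was -0.37 ± 0.18 in WT (adjusted p = 0.216) and -0.32 ± 0.18 in TNFR2-/- (adjusted p = 0.222), and all 6 cultures were lower in St. Exons of Gm42922 on the opposite strand overlap this gene.

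The Spred genes had changes of opposite sign. *Spred2* (ENSMUSG00000045671, chr11:19924375-20024026, plus strand) had 235, 283 and 259 FPKM in WT NS, 187, 233 and 194 in WT St, 202, 217 and 173 in TNFR2-/- NS and 175, 188 and 144 in TNFR2-/- St, with all 6 cultures lower at 0.750 to 0.869 of NS. Its adjusted p was 0.0995 in WT (log2 fold change -0.34 ± 0.13) and 0.225 in TNFR2-/- (-0.23 ± 0.13), and with the replicate block it was 5.82e-04 and 0.00254, under the fold limit. *Spred1* (ENSMUSG00000027351, chr2:117121374-117182279, plus strand) was nearly level in WT, with 92.9, 92.9 and 89.8 FPKM in NS and 97.1, 98.6 and 92.9 in St (log2 fold change 0.07 ± 0.10, adjusted p = 0.755). In TNFR2-/- it rose from 99.5, 87.2 and 103 FPKM to 122, 106 and 144, without overlap. That log2 fold change of 0.35 ± 0.10 passed the test (adjusted p = 0.0255) but not the fold limit, and the adjusted p was 0.0854, 0.0570 or 0.0652 without TNFR2-/- NS replicate 4, TNFR2-/- St replicate 2 or TNFR2-/- St replicate 5. When the 6 TNFR2-/- libraries were fitted alone, it was 0.123. The interaction for *Spred1* was 0.29 ± 0.14 (adjusted p = 0.653).

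**Figure D3:**
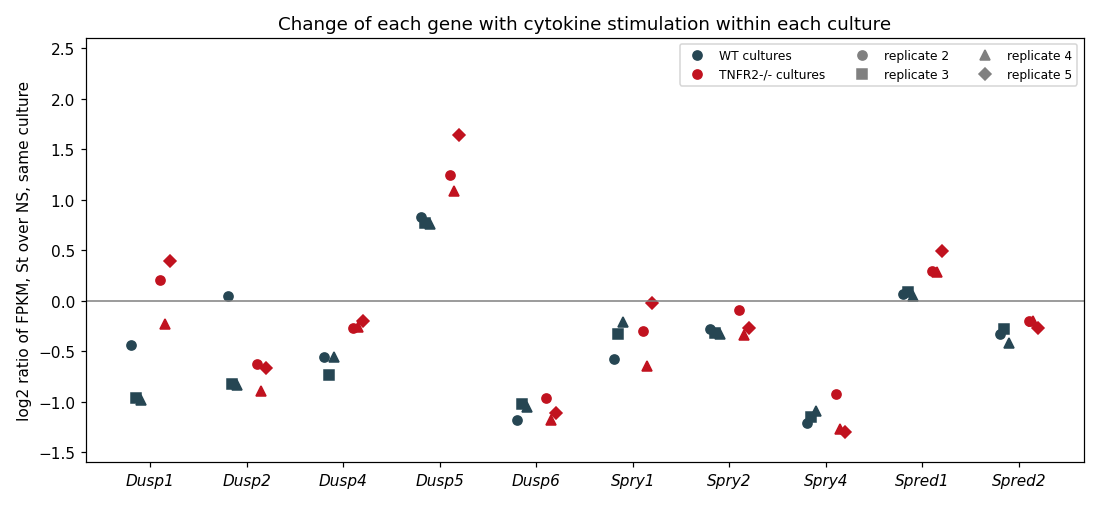
log2 ratio of FPKM, St over NS, of each gene in each of 6 cultures (vertical axis), with WT in dark blue, TNFR2-/- in red and the shape giving the replicate number. *Dusp6* and *Spry4* lie below 0 in all 6 cultures and *Dusp5* above 0 in all 6, with ratios of 1.69 to 1.77 in WT and 2.12 to 3.12 in TNFR2-/-.

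Counted by overlap, 6 members were lower and 1 higher in every WT St library than in every WT NS library, where 28.6% of all genes were so separated downward and 14.7% upward. In TNFR2-/- 3 members were separated downward and 2 upward, against 29.7% and 13.1% of all genes. Over the 13554 genes, only 1 was called in the interaction (0.00738%). No member was called there by limma or by voom on recovered reads. No member had an unadjusted p under 0.05 in the interaction either, beside 7.95% of all genes tested, so this absence does not set the members apart.

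Around the feedback genes, the response was divided. Of 12 other ERK-responsive genes, 3 were called higher and 3 lower in WT, and 4 higher and 2 lower in TNFR2-/-. *Etv5*, an ETS transcription factor induced by FGF and ERK, fell by 1.23 ± 0.10 on the log2 scale in WT and by 1.38 ± 0.10 in TNFR2-/- (adjusted p = 9.81e-06 and 3.35e-06), so it moved like *Dusp6* and *Spry4*. In contrast, the early genes *Ier3* (2.98 ± 0.21 in WT and 4.02 ± 0.21 in TNFR2-/-), *Phlda1* (0.99 ± 0.17 and 1.34 ± 0.17) and *Fos* (0.89 ± 0.23 and 1.64 ± 0.23) rose in both. The other genes called, chosen after their values were seen, were *Ccnd1* (cyclin D1), which fell by 0.76 ± 0.16 and 0.63 ± 0.16, *Egr1*, which fell by 0.87 ± 0.18 in WT, and *Fosl1*, which rose by 1.18 ± 0.20 in TNFR2-/-. None of the 18 genes of the cascade itself was called by limma in any comparison. With stimulation 6 of them in WT and 9 in TNFR2-/- had an unadjusted p under 0.05, as did 27.8% and 37.6% of all genes tested, and voom called 1 in each. *Mapk3*, the gene of ERK1, had a log2 fold change of -0.16 ± 0.10 in WT (adjusted p = 0.344) and of -0.41 ± 0.10 in TNFR2-/- (adjusted p = 0.0105, under the fold limit).

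Among 10 ligands and receptors that feed the cascade, *Fgf2* (1.23 ± 0.19 in WT and 1.26 ± 0.19 in TNFR2-/-) and *Met*, the hepatocyte growth factor receptor (1.22 ± 0.16 and 1.45 ± 0.16), rose and *Fgfr3* fell by 0.94 ± 0.18 and 1.17 ± 0.18. *Fgfr1* had log2 fold changes of -0.34 ± 0.10 (adjusted p = 0.0509) and -0.28 ± 0.10 (adjusted p = 0.0723). *Pdgfra*, the receptor of PDGF-AA, had -0.35 ± 0.15 in WT (adjusted p = 0.172) and -0.56 ± 0.15 in TNFR2-/- (adjusted p = 0.021, under the fold limit). Of 11 other negative regulators tested, *Errfi1*, an inhibitor of EGF receptors, rose in both genotypes (0.62 ± 0.18 and 0.996 ± 0.18). In TNFR2-/- *Il17rd*, which also damps FGF signaling, rose by 1.01 ± 0.31 and *Spry3* fell by 1.01 ± 0.24. The 8 other MAP kinase phosphatases held no call in WT by limma or voom (3 at an unadjusted p under 0.05, beside 27.8% of all genes), and in TNFR2-/- *Dusp16*, a JNK phosphatase, rose by 0.81 ± 0.24 and *Dusp14* fell by 0.64 ± 0.20.

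On the stress kinase side, 3 of 18 genes of the p38 and JNK route were called higher and 1 lower in WT, and 4 and 2 in TNFR2-/-. *Gadd45b* (2.49 ± 0.16 in WT and 2.75 ± 0.16 in TNFR2-/-), *Map3k8*, which also feeds MEK and ERK downstream of TNF (2.14 ± 0.19 and 2.73 ± 0.19), and *Map2k3*, which activates p38 (1.41 ± 0.13 and 1.66 ± 0.13), rose, and *Map2k6* fell by 0.84 ± 0.18 and 0.90 ± 0.18. The 6 direct cytokine targets were all called higher in both genotypes, by 10.2 ± 0.33 in WT and 9.34 ± 0.33 in TNFR2-/- for *Cxcl10*. Summed neuronal markers were also higher with stimulation, at 96.3 to 123.8 CPM in NS and 428.7 to 544.3 in St libraries, nearly all of the difference in *Tubb3*, while *Rbfox3* was at 1.22 to 3.73 in all libraries. *Snap25*, a neuronal synaptic gene, was lower in St, at 29.2 to 57.9 CPM in WT NS against 16.6 to 23.9 in WT St and at 34.2 to 43.4 against 17.0 to 23.1 in TNFR2-/-. The part of neuronal markers in the changes above was not tested.

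**Figure D4:**
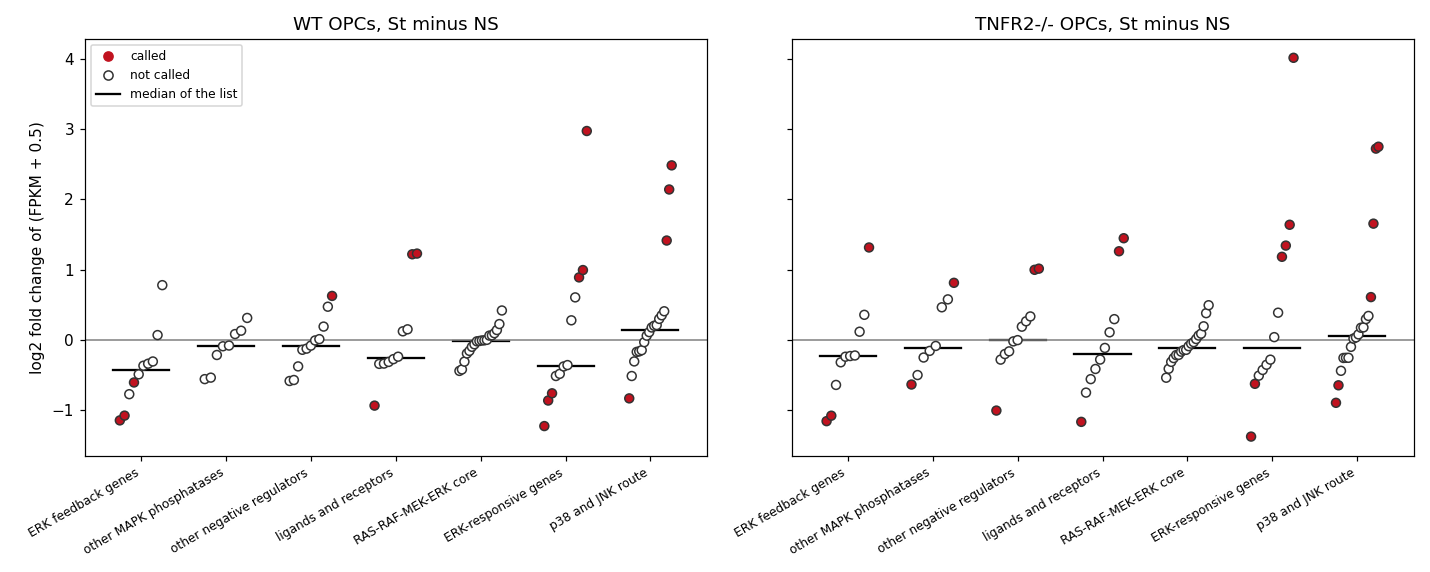
log2 fold change of (FPKM + 0.5), St minus NS, for each gene of 7 lists in WT (left) and TNFR2-/- (right), with called genes filled in red and a bar at each list's median. The median of the feedback genes is -0.43 in WT and -0.24 in TNFR2-/-, no gene of the RAS-RAF-MEK-ERK core is called, and *Ier3*, *Gadd45b* and *Map3k8* reach the highest values.

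In naïve cells, *Dusp1* and *Spry2* were lower in libraries labeled TNFR2-/- than in WT, a direction that rests on the labels. These 2 of 10 members were called, against 1.70% of all genes called lower and 2.16% called higher, and the median of the members was -0.31 beside 0.04 over all genes. *Dusp1* averaged 10.3 ± 5.14 FPKM in TNFR2-/- NS and 27.7 ± 7.66 in WT NS (SD, n = 3 each), and fell by 1.46 ± 0.34 on the log2 scale (adjusted p = 0.0279). *Spry2* was at 2179 ± 548 FPKM against 3404 ± 427, and fell by 0.66 ± 0.18 (adjusted p = 0.0432). For both genes the highest TNFR2-/- NS library, replicate 4, was below the lowest WT NS library. These calls rested on few libraries. Without WT NS replicate 3, WT NS replicate 4, TNFR2-/- NS replicate 2 or TNFR2-/- NS replicate 5, the adjusted p was 0.0947, 0.0978, 0.0698 or 0.0806 for *Dusp1* and 0.153, 0.117, 0.122 or 0.134 for *Spry2*. For *Spry2* it was also 0.0518 to 0.0647 without WT St replicate 2, 3 or 4 or TNFR2-/- St replicate 2. In a fit of the 6 NS libraries alone it was 0.0987 for *Dusp1* and 0.113 for *Spry2*, and without both libraries of the culture numbered 5 it was 0.0554 and 0.116.

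The other 8 members did not pass in NS. *Spry4* and *Spred2* were also lower in every TNFR2-/- NS library, with log2 fold changes of -0.55 ± 0.26 (adjusted p = 0.181) and -0.39 ± 0.13 (adjusted p = 0.0697), so that 4 members were separated downward and 0 upward, against 16.1% and 23.8% of all genes. *Dusp2* (-0.31 ± 0.22), *Dusp4* (-0.31 ± 0.15) and *Spry1* (-0.21 ± 0.18) overlapped between the genotypes. *Dusp6* (0.11 ± 0.07), *Dusp5* (-0.02 ± 0.24) and *Spred1* (0.07 ± 0.10) were close to 0.

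Immediate early genes were lower in the same libraries. All 10 of those listed had lower values in TNFR2-/- NS (median log2 fold change -1.11), beside 44.1% of all genes tested. Of these, 6 were called, against 1.70% of all genes called lower. They were led by *Fosb* (-2.55 ± 0.67, adjusted p = 0.0394), *Egr2* (-1.35 ± 0.33, adjusted p = 0.0315), *Egr1* (-1.28 ± 0.18, adjusted p = 0.00851) and *Fos* (-1.25 ± 0.23, adjusted p = 0.0164). *Egr1* and *Fos* were also the only ones of the 12 ERK-responsive genes called in this comparison. Among other phosphatases *Dusp8* and *Dusp10*, which act on p38 and JNK, fell by 0.96 ± 0.19 and 1.12 ± 0.32. In a fit of the 6 NS libraries alone, 7 genes were called higher and 0 lower, so none of these lower calls held there. Without WT NS replicate 3, 10 of all genes were called lower. *Fgfr3*, a receptor abundant in astrocytes, rose by 0.90 ± 0.18. Astrocyte markers summed to 791.4 to 943.1 CPM in WT NS and to 1321, 1217 and 2523 in TNFR2-/- NS replicates 2, 4 and 5, with *Gfap* at 9.34 to 18.7 and 29.5 to 345.8. No marker of the astrocyte list was at 0. The part of these markers, or of the handling of cultures, in the differences of *Dusp1* and *Spry2* was not tested.

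After stimulation no member was called between the genotypes by limma or voom, whereas 2.40% of all genes were called in either direction. At an unadjusted p under 0.05, 2 of 10 members passed, beside 26.7% of all genes tested. *Spry2* had a log2 fold change of -0.59 ± 0.18 (adjusted p = 0.0768) with 1837 ± 337 FPKM in TNFR2-/- St and 2742 ± 314 in WT St, and *Spred1* one of 0.36 ± 0.10 (adjusted p = 0.0626). With the culture as a replicate block the adjusted p was 0.044 for *Spry2*, which was then called, and 0.0439 for *Spred1*, under the fold limit. *Spry2*, *Spry4* and *Dusp2* were lower and *Dusp5* and *Spred1* higher in every TNFR2-/- St library, against 19.9% and 17.6% of all genes separated downward and upward. *Dusp5* differed by 0.52 ± 0.24 (adjusted p = 0.199), and *Spry4* by -0.56 ± 0.26 (adjusted p = 0.194). With the culture as a replicate block the adjusted p for *Dusp5* was 0.152. Without the culture numbered 5, a setting chosen after seeing the data, the difference in *Dusp5* was 0.68 and was called (adjusted p = 0.0297). Its adjusted p passed in 2 of 25 alternatives and was at most 0.403. *Dusp1*, called in naïve cells, had overlapping values after stimulation (-0.57 ± 0.34, adjusted p = 0.303), and *Dusp6* differed by 0.11 ± 0.07 (adjusted p = 0.336). In the other lists *Spry3* (-0.95 ± 0.24, adjusted p = 0.0488) and *Pdgfra* (-0.60 ± 0.15, adjusted p = 0.0489) were lower in TNFR2-/- St. Astrocyte markers again summed higher in TNFR2-/- St, at 1325 to 2502 CPM against 789.6 to 903.2, and their part in these values was not tested.

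**Figure D5:**
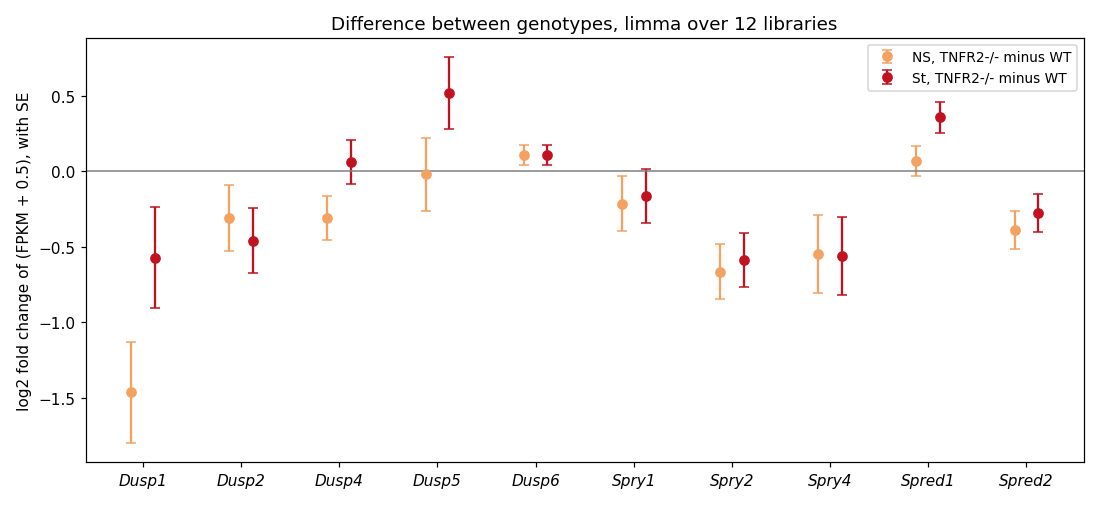
log2 fold change of (FPKM + 0.5), TNFR2-/- minus WT, with its SE (vertical axis), for each gene in NS (orange) and St (red) libraries. *Dusp1* is lowest in NS at -1.46 and *Spry2* lies at -0.66 in NS and -0.59 in St, while *Spred1* and *Dusp5* reach 0.36 and 0.52 in St.

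The TNFR2-/- cultures stood in a similar order for most members. TNFR2-/- replicate 5 was the lowest of its group for 8 of 10 members in NS and for 8 in St, and TNFR2-/- replicate 4 was the highest for 8 in NS and 7 in St. *Spred1* went the other way, highest in replicate 5 in both conditions. In WT, replicate 2 was the lowest of its group for 6 members in NS and for 5 in St. How often a library was the lowest or highest over all genes was not counted, so these counts may not be particular to the members. The TNFR2-/- culture 5 also had the highest astrocyte sums, 2523 and 2502 CPM, and the lowest sums of mural and fibroblast markers, 108.1 and 74.9, mostly *Acta2*. It had the highest sums of mature oligodendrocyte markers too, 1298 CPM against 720.0 and 895.4 in NS and 1098 against 562.9 and 796.0 in St. Its sums of OPC markers were also the highest of the TNFR2-/- cultures. They were 8889 CPM against 8206 and 8211 in NS and 7731 against 7090 and 7586 in St. *Pdgfra*, 1 of these OPC markers, was instead lowest in that culture, at 96.3 FPKM in NS and 57.0 in St. The part of any of these in its member levels was not tested. Once group means were removed, *Dusp4* and *Spry4* varied together most closely over the 12 libraries (Pearson r = 0.95), followed by *Dusp1* and *Dusp2* (0.87) and *Dusp1* and *Dusp4* (0.86), whereas *Spred1* went against *Spry4* (-0.91). For *Dusp6* the values ranged from -0.41 with *Spred1* to 0.58 with *Dusp5*, with 0.55 for *Spry4* and 0.02 for *Spry2*. NS and St libraries of 1 culture both enter these values, so they describe 6 cultures.

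The genes whose log2(FPKM + 0.5) was most like each member over the 12 libraries, among 13544 others, are given by Pearson's r, without a test. For *Dusp6* they were AI854517 (0.99) and *Midn* (0.99), and for *Spry4* they were *Ubtd1* (0.996) and the early gene *Arc* (0.99). *Dusp1* was most like *Fosb* (0.96), an immediate early gene, and *Cited2* (0.95). *Dusp5* was nearest to *Ube2ql1* and *Clic4* (both 0.98), *Dusp4* to *Mpp3* and AI593442 (both 0.94), and *Dusp2* to *Coro1a* and *Rtl1* (both 0.93). *Spry2* was nearest to E130308A19Rik (0.99) and *Pias2* (0.98), *Spry1* to *Madd* (0.95) and *Dact1* (0.94), *Spred1* to *Zdhhc21* (0.97) and *Nfya* (0.95), and *Spred2* to *Morc4* and *Patl1* (both 0.98).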

How the data were processed

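RNA of OPC cultures was sequenced in 12 libraries as paired 100 base reads, on a BGISeq-500 platform by the methods (the labels name Illumina protocols). The authors trimmed reads with Trim Galore, counted read pairs per gene with STAR on GRCm38 and used EdgeR for their own calls, and deposited FPKM in 1 table for NS and 1 for St libraries. Strand in counting is not given in the sources used here. Both tables share each gene's divisor, so NS and St are comparable. Symbols used more than once (99) were left out. Reads were recovered by seeking, for each gene, the smallest number of bases that made reads whole in every library (within 0.02). All 26636 genes above 0 in 2 or more libraries gave such a number. The search itself aims at whole reads, so this is not a check of them. These recovered reads were used for CPM, for levels per exon kb (GENCODE M21) and for voom.

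limma 3.58.1 (R 4.3.3) was run on log2(FPKM + 0.5) over all 12 libraries, with 1 mean for each of the 4 groups, a variance prior that follows the mean, and Benjamini-Hochberg adjustment over the 18081 genes that averaged 0.1 FPKM or more. The culture as a replicate block takes out differences between cultures in comparisons of St with NS and in the interaction. Between genotypes it does not, since each culture has 1 genotype. There, libraries of 1 culture were modeled as correlated. The pseudocount understates changes of low genes. The divisors of the FPKM do not follow gene length, so the limits of 0.1 and 1 FPKM stand for unequal read numbers between genes. In WT NS replicate 2, *Dusp1* had 1068 reads at 21.1 FPKM and *Dusp4* 1900 reads at 196.5 FPKM. The variance prior follows the same scale. All 10 members are named. From the other lists the called genes are named, up to 4 per list and comparison by size of change, with *Pdgfra*, *Fgfr1* and *Mapk3*, and the 2 genes most like each member. The result for 1 other gene is not reported here. The members and lists were chosen with earlier results of these data known. The paper's captions describe the replicates as independent experiments, but the sources do not say whether they came from separate litters. The p-values therefore measure the spread between these cultures, and how far that covers differences between animals is not known.

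Replicate numbers marked shared cultures. In each genotype, libraries of 1 number deviated together from their group means (6 pairs, r of 0.34 to 0.65 over 13554 genes), unlike the 12 pairs of other numbers (-0.45 to 0.09). Across genotypes the 4 same-numbered pairs correlated at -0.06 to 0.20, so the block was made within genotype. Scripts ran in Python 3.11.15 with numpy 2.4.6, pandas 2.3.3 and matplotlib 3.10.9 and were tested on simulated data. Alternatives were other pseudocounts, filters, scalings, fits over 6 libraries, no trend, library weights, voom, no fold limit, replicate blocks and each library left out.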

Additional observations from a re-analysis of the deposited data

How the results depend on the processing

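Of 1240 values of single members under an alternative, 1120 kept direction and side of the threshold, 26 lost significance, 55 gained it and 39 changed sign, all of these uncalled. *Dusp6* in both genotypes, *Spry4* in WT and *Dusp5* in TNFR2-/- passed the adjusted p under every alternative run. The causes of the changes below were not tested, and the interaction could not be fitted over 6 libraries.

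In naïve TNFR2-/- vs. WT cells, 524 genes and 2 members were called. These became 268 and 0 without a filter on low values, 7 and 0 over the 6 libraries compared, 49 to 953 and 0 to 2 with 1 library left out, and 216 and 0 without both libraries of culture 5 (chosen after seeing the data). Without the trend 1 member was called. Between stimulated genotypes, 325 genes and 0 members became 166 genes without the filter, 47 over 6 libraries, 506 with library weights, 39 to 462 with 0 to 1 members with 1 library left out, and 129 with 1 member without culture 5. Without a fold limit the counts of genes were 2626 in WT, 4235 in TNFR2-/-, 1848 in naïve and 893 in stimulated cells. The interaction held 0 genes with voom and 1 to 2 with 1 library left out.

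With the replicate block within genotype, 5 members were called with stimulation in WT and 1 between stimulated genotypes, and it changed no other count of members or genes by over 1.5 times. With the number shared between genotypes as the replicate block, the members called were 5 in WT, 1 in naïve and 1 in stimulated cells.

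Changes of sign follow. *Dusp6* in the interaction was 0.0577 with median-of-ratios scaling, 0.0128 with quantile normalization, 0.0327 with weights, 0.0147 without culture 5 and -0.058 to 0.0426 with 1 library left out. *Spry4* there was 0.0475 with that scaling, 0.0994 with weights, 0.0566 without culture 5 and -0.24 to 0.29. *Spry1* was -0.10 without culture 5 and -0.14 to 0.29, *Spry2* -0.0682 to 0.27 and *Dusp2* -0.31 to 0.0897. In naïve cells *Dusp5* was 0.15 with weights, 0.14 with the shared-number replicate block, 0.30 without culture 5 and -0.19 to 0.30, and *Spred1* -5.297e-04 with that block. *Dusp1* in stimulated TNFR2-/- cells was -0.013 without culture 5 and -0.23 to 0.47, and *Dusp4* between stimulated genotypes -0.0616 to 0.19. Depth limits *Dusp2* most, with as few as 98 reads.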
